A study of Saccharomyces cerevisiae with 26 samples.

Results

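Meiotic yeast cells held in the microtubule drug benomyl for 4 h were compared with cells held for the same time in its solvent, dimethyl sulfoxide (DMSO). The members are the 2 arrays titled SB8 (benomyl) and the 2 titled SD8 (DMSO), 4 of the 26 arrays of the study, found by their titles. Sporulation cultures of Saccharomyces cerevisiae had gone through rich glucose medium and overnight acetate medium into potassium acetate sporulation medium. At 4 h of sporulation they were collected on a filter and put back into sporulation medium with the drug or the solvent. The labels give 30 °C for both groups and for every group set beside them below. The drug came from a stock of 30 mg per ml in DMSO, and the labels give 0.4% as the final strength of both additions. Both groups therefore share the filtration and, as far as the labels say, the solvent, and they differ in benomyl. The labels name no strain, genotype or ploidy and do not say that the arrays come from separate cultures, so p-values measure the spread between arrays, which may be technical. Arrays taken 1 h after the same treatments (2 per group), arrays taken before filtration and a second set of arrays taken 1 h and 4 h after filtration, whose labels name neither drug nor solvent, serve only for comparison.

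Benomyl binds tubulin and makes microtubules fall apart. In sporulating yeast, diploid cells replicate their DNA, recombine homologous chromosomes, pass through both meiotic divisions on a microtubule spindle, and enclose the resulting nuclei in prospore membranes and spore walls. The kinase Ime2 and the transcription factor Ndt80 drive the step from recombination to the divisions, and Sum1, with Hst1 and Rfm1, represses the genes that Ndt80 turns on. Budding yeast meets foreign compounds with efflux pumps and redox enzymes under the transcription factors Pdr1, Pdr3, Yrr1 and Yap1.

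Levels below are quantile-normalized log2 signals, effects are benomyl minus DMSO on the log2 scale ± the standard error of the fit, and n is 2 arrays per group throughout. The words rose and fell are kept for genes whose limma p, adjusted by Benjamini and Hochberg over the 7876 probe sets tested, was under 0.05. Unless the second set is named, they compare benomyl with DMSO and not with the level before filtration. The array medians of the 4 arrays as deposited lay between 6.93 and 7.00. Replicates were close, with Pearson r = 0.995 between the benomyl arrays and 0.994 between the DMSO arrays across probe sets. Replicate 1 of both groups was scanned on one day and replicate 2 of both on another, so the difference within each scan day is a difference of single arrays. Of 8 sporulation markers all were measured, and HOP1 rose while NDT80, SPS1 and DIT1 fell. Of 8 markers of haploid or mating cells 7 passed the filter on low signals, and their group means lay between 5.02 and 8.77 with benomyl and between 5.05 and 8.61 with DMSO. Among these only STE3, the receptor for the a-factor pheromone, was called, and it fell (-1.01 ± 0.21). In total RNA from a culture, fewer cells with a transcript and less transcript per cell cannot be told apart.

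After 4 h, 1309 probe sets were higher with benomyl and 1256 were lower, which is 16.6% and 15.9% of those tested. Of these, 203 were higher by at least 2-fold and 537 lower by at least 2-fold, or 2.58% and 6.82%. Values as deposited gave 854 higher and 1477 lower, and leaving out single arrays gave between 1516 calls (without DMSO replicate 2) and 2018 calls (without DMSO replicate 1) in place of 2565, with 1626 without benomyl replicate 1. By gene, 1113 of 5464 rose (20.4%) and 964 fell (17.6%), and 171 rose (3.13%) and 427 fell (7.81%) by at least 2-fold. The benomyl and DMSO arrays did not overlap for any of the 2565 called probe sets, but they also did not overlap for 78.0% of all probe sets, so non-overlap alone says little here. That each called probe set had the same sign on both scan days follows from this non-overlap and adds nothing to it.

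**Figure D1:**
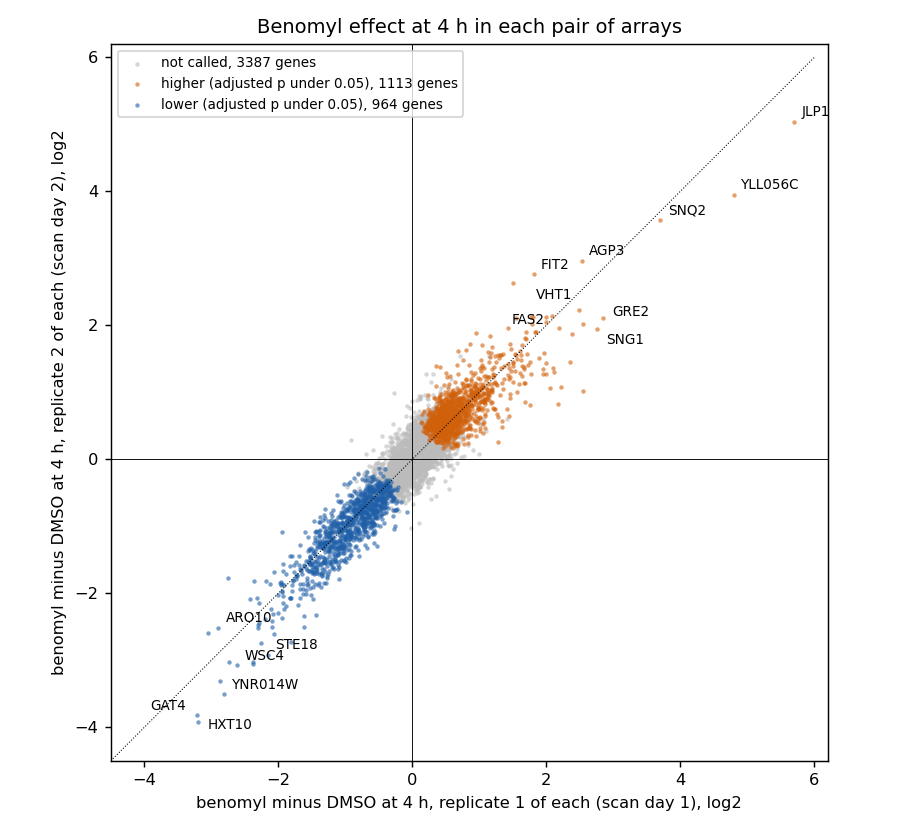
Effect of benomyl at 4 h on each gene, replicate 1 of each group on the x axis (scan day 1) and replicate 2 on the y axis (scan day 2), both as log2 benomyl minus DMSO; each point is a gene, coloured by its call, and the dotted line marks equal effects. The 1113 higher and 964 lower genes lie toward the upper right and lower left, with JLP1 at 5.70 and 5.04 and GAT4 at -3.21 and -3.82 on the 2 days.

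JLP1, which encodes a sulfonate dioxygenase that frees sulfite from taurine and related compounds, had the largest rise. Its signals were 11.20 and 10.61 with benomyl and 5.50 and 5.57 with DMSO, so the groups did not overlap and lay far apart. The effect was 5.37 ± 0.21 (limma adjusted p = 5.15e-12), a 41.4-fold difference. YLL056C, an open reading frame without a settled role, lies next to JLP1 on the chromosome and read 12.08 and 11.23 with benomyl and 7.28 and 7.29 with DMSO. Its effect of 4.38 ± 0.31 (limma adjusted p = 1.58e-08) was the next in size. SNQ2, an ABC transporter that exports many drugs, read 11.71 and 11.37 with benomyl and 8.01 and 7.80 with DMSO. It rose by 3.64 ± 0.15 (limma adjusted p = 8.65e-12), or 12.5-fold.

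The rest of the 12 largest rises included genes of transport and redox metabolism. They were AGP3, a low-affinity amino acid permease (2.75 ± 0.20), GRE2, a methylglyoxal reductase (2.48 ± 0.24), VHT1, the biotin transporter (2.36 ± 0.27), and SNG1, which protects against nitrosoguanidine (2.35 ± 0.21). FIT2, a cell wall mannoprotein that retains siderophore iron, had 2.29 ± 0.55, and its call was lost without benomyl replicate 2 (1.72). The little characterized YGR035C (2.28 ± 0.20) and YNL134C (2.12 ± 0.27) and the desiccation protein gene SIP18 (2.11 ± 0.32) followed. FAS2, the alpha subunit of fatty acid synthase, closed the group of 12 (2.08 ± 0.18), and its probes can match near-identical copies, so its value is uncertain. For all 12 genes the benomyl arrays also lay above both second-set 4 h arrays.

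**Figure D2:**
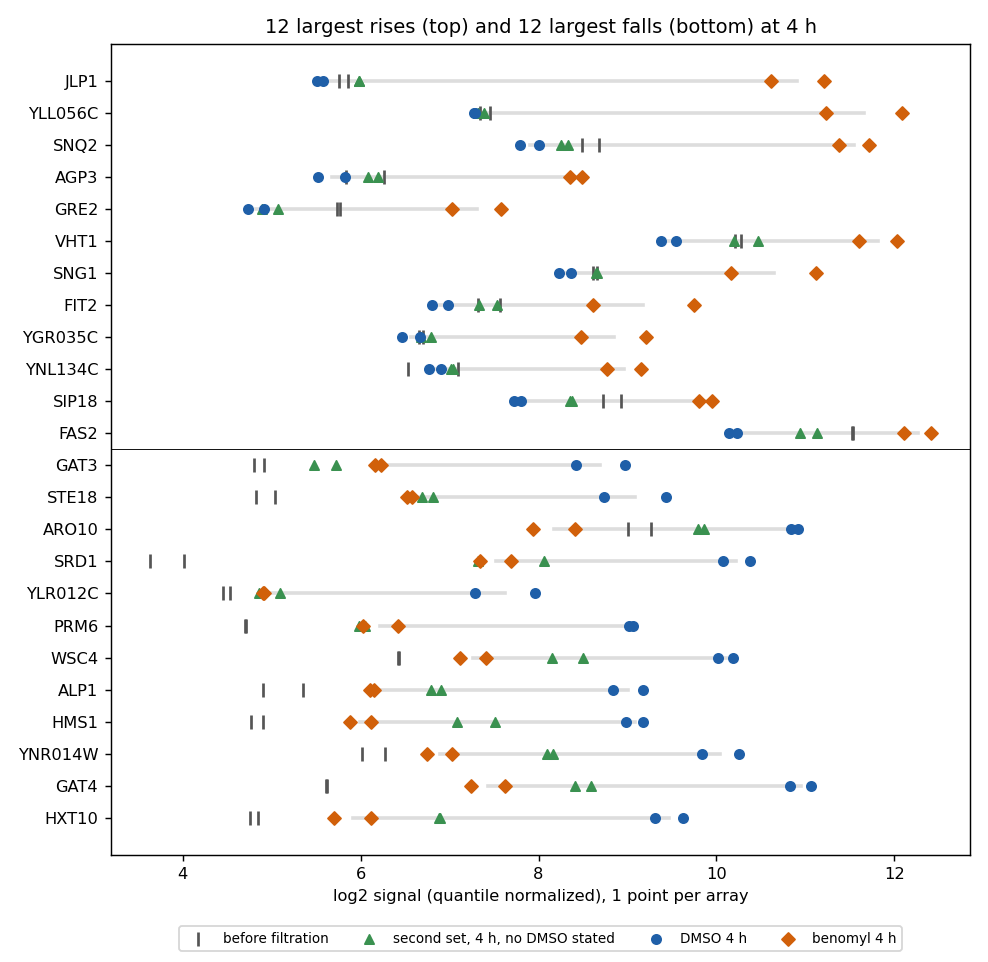
Log2 signal of the 12 genes that rose most and the 12 that fell most at 4 h, 1 point per array: benomyl 4 h (diamonds), DMSO 4 h (circles), second set 4 h (triangles) and before filtration (ticks); grey bars join the group means. JLP1 lies near 11 with benomyl and below 6 in the other groups shown, whereas GAT4 lies highest with DMSO, in between in the second set and lowest before filtration.

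Most sulfur genes tested rose. Of 35 tested genes of sulfate assimilation, methionine synthesis and sulfonate use, 21 rose and 1 fell, beside 20.4% and 17.6% of all genes, with a median of 0.92 beside 0.13 over all genes. MET17, the O-acetylhomoserine sulfhydrylase that builds sulfide into homocysteine, read 12.33 and 11.92 with benomyl and 10.44 and 10.42 with DMSO. The groups did not overlap and the effect was 1.70 ± 0.21 (limma adjusted p = 6.01e-06). MET13, a methylenetetrahydrofolate reductase, rose by 1.24 ± 0.12. The exception was MET31, a zinc finger activator of this same pathway, which fell from 7.21 and 7.36 with DMSO to 5.72 and 5.67 with benomyl (-1.59 ± 0.17). The medians of the list within the scan days were 1.08 and 0.75. Without benomyl replicate 1 the rises numbered 15.

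Drug efflux genes were higher with few exceptions. Of 17 multidrug resistance genes 14 rose (82.4%, beside 20.4% of all genes) and 0 fell, with a median of 0.77. Besides SNQ2 and SNG1, PDR5, an ABC transporter gene whose probes can match near-identical copies, read 10.01 and 9.83 with benomyl and 8.56 and 8.91 with DMSO and rose by 1.19 ± 0.19. The polyamine transporter gene TPO1 (1.44 ± 0.16) and PDR10 (1.02 ± 0.15), a relative of PDR5, rose too. FLR1, the transporter known for resistance to fluconazole and benomyl, read 10.37 and 8.67 with benomyl and 7.83 and 7.65 with DMSO. The benomyl arrays were thus uneven, and the effect of 1.78 ± 0.36 (limma adjusted p = 0.000856) was 0.93 without benomyl replicate 1. AZR1, a transporter for azole drugs, stood at 0.12 (limma adjusted p = 0.813). With benomyl replicate 1 left out, the count of higher multidrug genes was 8.

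Among thioredoxin, glutathione and Yap1 target genes 14 of 25 rose and 3 fell, median 0.60, with 0 to 1 falls without benomyl replicate 2 or either DMSO array. They included the thioredoxin peroxidase gene AHP1 (1.20 ± 0.13), the thioredoxin gene TRX2 (1.10 ± 0.11), the glutathione reductase gene GLR1 (0.99 ± 0.11) and the glutaredoxin gene GRX2 (0.95 ± 0.11). OYE3, an NADPH oxidoreductase, read 8.71 and 7.60 with benomyl and 6.49 and 6.52 with DMSO and rose by 1.65 ± 0.26, or by 1.09 without benomyl replicate 1. Of 12 aldo-keto, aryl-alcohol and nitroreductase genes 8 rose and 1 fell, median 0.80, with 5 rises without benomyl replicate 1. The aldose reductase gene GRE3 (1.21 ± 0.18) and the aryl-alcohol dehydrogenase gene AAD10 (1.50 ± 0.29, and 0.88 without benomyl replicate 1) were among them. ARI1, an aldehyde reductase, fell (-0.91 ± 0.18). FRM2, a nitroreductase relative, was not called (0.27, limma adjusted p = 0.231).

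Iron uptake genes rose in part: 10 of 21 were higher (47.6%, beside 20.4% of all genes) and 0 lower, median 0.69. The siderophore transporter gene ARN2 read 10.07 and 11.19 with benomyl and 8.57 and 8.55 with DMSO. Both benomyl arrays were above both DMSO arrays but more than 1 log2 unit apart, and the effect was 2.07 ± 0.41. FIT3, next to FIT2 on the chromosome, rose by 1.83 ± 0.41, the siderophore transporter gene SIT1 by 1.62 ± 0.29 and AFT1, the iron-sensing activator of the regulon, by 1.07 ± 0.22. Without benomyl replicate 2 the count of higher genes was 6.

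Of 26 general stress genes 16 rose (61.5%, beside 20.4% of all genes) and 0 fell, median 0.53. YGP1, a secreted glycoprotein gene induced in starvation, read 13.16 and 13.03 with benomyl and 11.16 and 10.90 with DMSO and rose by 2.06 ± 0.16 (limma adjusted p = 3.86e-08). TFS1, an inhibitor of carboxypeptidase Y (1.87 ± 0.20), and the neutral trehalase gene NTH1 (0.81 ± 0.13, not called with values as deposited, 0.46) rose as well. With values as deposited the rises in this list numbered 8, and without DMSO replicate 2 they numbered 10. Of 21 heat shock chaperone genes 8 rose (38.1%, beside 20.4% of all genes) and 3 fell (14.3%, beside 17.6%), median 0.38. With values as deposited these counts were 4 and 4, and the rises numbered 5 without benomyl replicate 1 or DMSO replicate 2. The disaggregase gene HSP104 rose by 0.88 ± 0.17 and AHA1, a partner of Hsp90, by 0.99 ± 0.12, whereas the stress-induced Hsp70 gene SSA4 fell (-0.97 ± 0.13). Among cell wall integrity genes 8 of 18 rose (44.4%, beside 20.4% of all genes) and 2 fell (11.1%, beside 17.6%), median 0.14.

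Genes of lipid and sterol synthesis rose in part. FAS2 read 12.42 and 12.11 with benomyl and 10.23 and 10.14 with DMSO, and FAS1, the beta subunit of the same enzyme and likewise uncertain for its probes, rose by 1.78 ± 0.26. Of 27 ergosterol genes 12 rose (44.4%, beside 20.4% of all genes) and 1 fell, median 0.55. ERG3, the sterol desaturase, read 11.01 and 10.86 with benomyl and 9.30 and 9.28 with DMSO, and the effect was 1.64 ± 0.17 (limma adjusted p = 8.42e-07). ERG5 (1.60 ± 0.15), a desaturase late in the pathway, MVD1 (0.95 ± 0.11), of the mevalonate steps, and the lanosterol synthase gene ERG7 (0.75 ± 0.13) rose with it. The count of higher genes in this list was 8 with values as deposited. Against the arrays before filtration the list median was -0.07 with benomyl and -0.68 with DMSO at 4 h. All genes had -0.08 and -0.27.

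Respiratory and glycolytic genes rose in part. Of 41 genes of the TCA cycle and respiratory chain 25 rose and 1 fell, median 0.47. Examples were the cytochrome oxidase genes COX8 (1.25 ± 0.15), COX6 (1.07 ± 0.15) and COX4 (0.98 ± 0.13) and the ATP synthase subunit gene ATP16 (1.10 ± 0.13). The rises numbered 12 with values as deposited and 14 without benomyl replicate 1. In glycolysis 9 of 17 rose and 1 fell, median 0.44, but against the second-set 4 h arrays 0 were higher and 2 lower. The rises included GPM1 (1.36 ± 0.20), a phosphoglycerate mutase, ENO1 (1.38 ± 0.18, an enolase, uncertain for its probes), the hexokinase gene HXK1 (0.87 ± 0.15) and the triose phosphate isomerase gene TPI1 (0.62 ± 0.12). ENO1 averaged 12.71 before filtration, 12.05 with benomyl and 10.67 with DMSO, and GPM1 averaged 11.33, 11.39 and 10.03. Of 17 genes of the glyoxylate cycle and gluconeogenesis 2 rose and 4 fell, median -0.19, with 2 falls without benomyl replicate 1 or either DMSO array. The peroxisomal citrate synthase gene CIT2 (-0.82 ± 0.14) and the carnitine acetyltransferase gene YAT2 (-1.02 ± 0.18) fell, while the isocitrate dehydrogenase gene IDP2 rose (1.34 ± 0.36, not called without DMSO replicate 1, 1.23). Of 14 genes of peroxisomal fatty acid oxidation 2 rose and 2 fell (14.3% each). The glyoxylate and gluconeogenesis list had 11.8% higher and 23.5% lower. Among all genes 20.4% were higher and 17.6% lower, so the shares lower in both lists were near that of all genes.

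Nitrogen genes rose in part. Of 25 nitrogen catabolite and ammonium genes 12 rose and 3 fell, beside 20.4% and 17.6% of all genes, median 0.40. The share lower was thus below that of all genes. The general amino acid permease gene GAP1 read 11.24 and 10.32 with benomyl and 9.55 and 9.46 with DMSO and rose by 1.27 ± 0.26, but by 0.82 without benomyl replicate 1. The ammonium permease gene MEP3 (1.56 ± 0.29, and 0.98 without that array), the allantoin gene DAL3 (1.28 ± 0.23, and 0.81) and the serine deaminase gene CHA1 (1.51 ± 0.28) behaved alike in sign. GDH2, the NAD-linked glutamate dehydrogenase, fell (-1.12 ± 0.17). Without benomyl replicate 1 the list had 5 genes higher and 5 lower, without DMSO replicate 2 it had 5 and 3, and against the second-set 4 h arrays in place of DMSO it had 1 and 1.

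Among 14 amino acid permeases 3 rose (21.4%, beside 20.4% of all genes) and 6 fell (42.9%, beside 17.6%), median -0.19. The share higher was thus near that of all genes. AGP1 rose (0.96 ± 0.16) beside AGP3. ALP1, an arginine permease gene, fell from 8.83 and 9.17 with DMSO to 6.10 and 6.15 with benomyl (-2.88 ± 0.23). The tyrosine and tryptophan permease gene TAT1 (-2.03 ± 0.19) and SSY1, the sensor of external amino acids (-1.33 ± 0.15), fell too. Of 48 amino acid biosynthesis genes 13 rose (27.1%, beside 20.4% of all genes) and 3 fell, median 0.39. The rises included HIS4 (1.55 ± 0.25), LEU1 (1.28 ± 0.21) and LEU2 (1.04 ± 0.16). The rises in this list numbered 4 with values as deposited, 3 without benomyl replicate 1 and 5 without DMSO replicate 2. Against the second-set 4 h arrays HIS4 stood at -0.22, the opposite sign.

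The largest fall was that of HXT10. HXT10, a hexose transporter gene, read 6.12 and 5.71 with benomyl and 9.31 and 9.62 with DMSO, which left a gap of more than 3 log2 units between the groups. Its effect was -3.56 ± 0.17 (limma adjusted p = 9.61e-11). GAT4, a member of the GATA family of zinc finger proteins, read 7.62 and 7.25 with benomyl and 10.83 and 11.07 with DMSO. It fell by 3.51 ± 0.18 (limma adjusted p = 2.15e-10), or 11.4-fold, and its effects within the scan days were -3.21 and -3.82.

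GAT3 (-2.50 ± 0.18), SRD1 (-2.71 ± 0.25) and ECM23 (-2.27 ± 0.18), which belong to the same family, fell as well. In all 2 of 10 tested GATA factor genes rose and 5 fell, median -0.35. The uncharacterized YNR014W (-3.15 ± 0.39) and YLR012C (-2.72 ± 0.21), the latter next to GAT3 on the chromosome, were among the 12 largest falls. So were HMS1, a helix-loop-helix factor (-3.08 ± 0.20), the cell wall sensor gene WSC4 (-2.84 ± 0.17), and PRM6, a potassium transporter gene (-2.82 ± 0.18). ARO10, a phenylpyruvate decarboxylase (-2.70 ± 0.17), and STE18, the gamma subunit of the pheromone G protein (-2.54 ± 0.18), completed the group.

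Levels in other arrays were set beside these falls. For GAT4 the 2 arrays before filtration read 5.61 and 5.62, and the second-set 4 h arrays read 8.41 and 8.59. With the second-set 4 h arrays in place of DMSO, GAT4 stood at -1.06 (limma adjusted p = 0.000705) and HXT10 at -0.98 (limma adjusted p = 0.00093), both still lower. In the same exchange WSC4 stood at -1.06, HMS1 at -1.30 and ARO10 at -1.66, whereas GAT3 was higher (0.59, limma adjusted p = 0.0291) and PRM6 stood at 0.21 with no call. The second set differs from the benomyl arrays in set and in the solvent stated, so drug, set and solvent cannot be told apart there.

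Recombination genes, which act before the divisions, were not among those that fell. IME1, the inducer of meiosis, read 12.54 and 12.57 with benomyl and 12.42 and 12.38 with DMSO, an effect of 0.15 ± 0.29 that was not called (limma adjusted p = 0.73). Of 30 recombination and synapsis genes 4 rose (13.3%, below the 20.4% of all genes) and 0 fell, median 0.38, and a limma fit blocked by scan day called none of the 30. The rises were the cohesin gene REC8 (0.72 ± 0.19), the chromosome axis gene HOP1 (0.62 ± 0.17), REC107, needed for recombination breaks (0.59 ± 0.14), and ECM11, of the synaptonemal complex (0.42 ± 0.14). The calls of ECM11, HOP1 and REC8 ended without DMSO replicate 2 (0.48, 0.47 and 0.56) and with values as deposited (0.21, 0.34 and 0.48), and without benomyl replicate 2 (0.36, 0.49 and 0.65), and in each case the list had 1 rise, REC107. That of ECM11 also ended without benomyl replicate 1 (0.47) or DMSO replicate 1 (0.35). Fitted to the 4 arrays of the comparison alone, whose own spread was smaller, the list had 20 rises and 0 falls. Of 13 meiotic entry regulators 1 rose (7.69%) and 2 fell (15.4%, beside 17.6% of all genes). Their median of 0.12 turned to -0.09 with values as deposited and -0.04 with median centring. IME2, the kinase that follows Ime1, read 9.10 and 9.46 with benomyl and 10.28 and 10.76 with DMSO. It fell by 1.24 ± 0.42 (limma adjusted p = 0.0303), but not to a call without either benomyl array (-1.06 and -1.42) or without DMSO replicate 2. IDS2, a modulator of Ime2, fell (-0.93 ± 0.13).

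At the switch to the divisions NDT80 read 7.80 and 8.29 with benomyl and 9.26 and 9.22 with DMSO. The groups did not overlap, and NDT80 fell (-1.19 ± 0.31, limma adjusted p = 0.00686), a call that ended without benomyl replicate 1 (-0.94). SUM1, the repressor of the same target genes, was not called (0.23 ± 0.19, limma adjusted p = 0.406), while the genes of its partners HST1 (-1.05 ± 0.14) and RFM1 (-1.04 ± 0.24) fell. Division regulators fell with few exceptions, 15 of 18 lower (83.3%, beside 17.6% of all genes) and 0 higher, median -1.16. The B-type cyclin gene CLB4 read 9.37 and 9.74 with benomyl and 11.34 and 11.56 with DMSO and fell (-1.90 ± 0.21). CLB6 (-1.87 ± 0.20), CLB1 (-1.57 ± 0.32), the anaphase activator gene CDC20 (-1.62 ± 0.22), the exit phosphatase gene CDC14 (-1.26 ± 0.17) and AMA1, the meiosis-specific activator of the anaphase complex (-0.84 ± 0.22, -0.67 and no call without DMSO replicate 2), fell too.

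The prospore membrane list had the highest share of falls of the 39 lists, 90.9%. Of 22 genes of the prospore membrane and sporulation kinases 20 fell and 1 rose, median -1.32, and the medians within the scan days were -1.35 and -1.31. SMA2, needed for prospore membrane growth, read 8.17 and 8.13 with benomyl and 10.47 and 10.60 with DMSO and fell (-2.39 ± 0.23, limma adjusted p = 3.52e-07). SMA1 (-2.25 ± 0.24), IRC10 (-1.92 ± 0.24), SPO73 (-1.29 ± 0.14) and the kinase genes SMK1 (-1.67 ± 0.28) and SPS1 (-1.06 ± 0.27) fell in the same way. Of 26 spore wall genes 19 fell and 1 rose, median -1.12, with 8 falls with the replicate number as a block and 11 over the same 8 arrays with no block. OSW2, of the outer spore wall, read 8.13 and 8.48 with benomyl and 10.13 and 10.51 with DMSO and fell (-2.01 ± 0.24), as did OSW1 (-1.90 ± 0.26), SPS22 (-1.94 ± 0.23), for the glucan layer, and CRR1 (-1.55 ± 0.24), a putative glycosidase. Of 15 other mid and late sporulation genes 9 fell and 1 rose, median -0.84, with 4 falls without benomyl replicate 1, 6 without benomyl replicate 2 or DMSO replicate 1, and 5 without DMSO replicate 2. The glucoamylase gene SGA1 read 12.41 and 12.24 with benomyl and 13.69 and 13.98 with DMSO (-1.51 ± 0.25). SPS18 (-1.32 ± 0.30), SPR6 (-1.29 ± 0.21) and RRT5 (-1.27 ± 0.25) fell.

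The size of these falls was set against the course of the same genes without drug. In the second set 187 genes (3.42% of those tested) were at least 2-fold higher 4 h after filtration than 1 h after it, and this choice shared no array with the benomyl comparison. With benomyl at 4 h, 177 of the 187 were lower than in DMSO, 0 were higher and 10 were not called, with a median of -1.43 and of -1.39 and -1.44 within the scan days. Among all genes 17.6% were lower. Conversely, 259 of the 427 genes that fell by at least 2-fold under benomyl (60.7%) had risen in the second set, beside 6.63% of all genes. Of the 152 genes that fell at any size in the second set (2.78%), 92 were higher with benomyl than with DMSO and 3 lower.

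In both groups these genes stood above their level before filtration. Their median was 6.51 before filtration, 7.66 after 1 h in DMSO and 10.2 after 4 h in DMSO. With benomyl it was 6.55 at 1 h and 8.76 at 4 h. The second set, on which the genes were chosen, had 6.33 at 1 h and 8.68 at 4 h. Between benomyl at 4 h and the second set at 4 h the median difference was 0.08, and 10 of the 187 genes were lower with benomyl. The lists behaved alike: against the second-set 4 h arrays the medians were -0.03 for division regulators, 0.30 for the prospore membrane, 0.19 for the spore wall and 0.21 for other late genes, with 0 genes lower in each. The sporulation genes were thus lower than in the DMSO control of their own set and near the level of the undrugged arrays of the other set. The first set holds filtered arrays with no solvent stated only at 1 h, so set and solvent cannot be told apart at 4 h.

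In the same exchange several lists held fewer calls with most on the same side, beside 6.5% of all genes higher and 6.57% lower than the second set and a median of 0.03. Sulfur genes had 12 of 35 higher and 0 lower, multidrug genes 9 of 17 and 0, redox genes 10 of 25 and 0, and aldo-keto and related genes 6 of 12 and 0. Iron uptake had 4 of 21 higher and 1 lower, general stress 4 of 26 and 0, ergosterol synthesis 3 of 27 and 0, and TCA cycle and respiratory genes 14 of 41 and 0. Other lists did not keep it: glycolysis had 0 of 17 higher and 2 lower, amino acid biosynthesis 2 of 48 and 4 (median -0.17), and nitrogen genes 1 of 25 and 1. Ribosomal protein genes stood apart from their value against DMSO, with 66 of 81 lower and a median of -0.74. Against the arrays before filtration, several lists had 4 h medians near that level with benomyl and below it with DMSO. They were general stress (0.02 with benomyl, -0.70 with DMSO), glycolysis (-0.08, -0.63), amino acid biosynthesis (-0.14, -0.59) and nitrogen genes (-0.12, -0.57). Other lists stood above it with benomyl, such as sulfur (0.54, -0.34), multidrug (0.61, -0.34), iron (0.41, -0.55) and TCA cycle genes (0.22, -0.26).

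**Figure D3:**
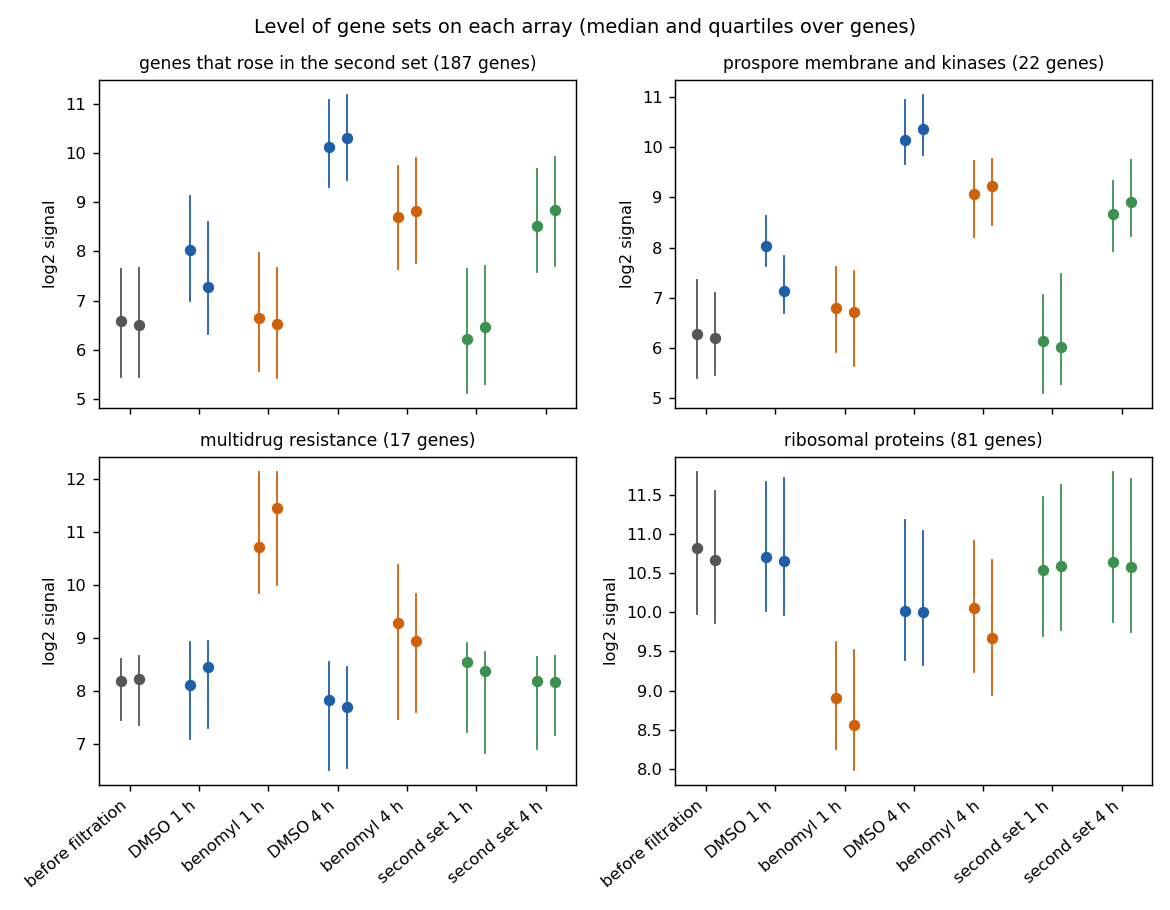
Median log2 signal over the genes of a set on each array (point) with the lower and upper quartiles over genes (line); colours mark DMSO (blue), benomyl (orange), the second set (green) and cells before filtration (grey). Genes that rose in the second set have medians of 6.51 before filtration, 10.2 in DMSO and 8.76 in benomyl at 4 h, and multidrug resistance genes are highest in benomyl at 1 h.

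Genes for the drug's target showed small effects. TUB1, the major alpha-tubulin gene, read 12.59 and 12.62 with benomyl and 12.65 and 12.62 with DMSO and was not called (-0.03 ± 0.13, limma adjusted p = 0.885). TUB2, the single beta-tubulin gene and the subunit that benomyl binds, read 12.01 and 12.19 with benomyl and 12.42 and 12.33 with DMSO. It fell by 0.28 ± 0.10 (limma adjusted p = 0.0399), a call that ended without benomyl replicate 1 (-0.19) or without either DMSO array (-0.23 and -0.32). TUB3, the minor alpha-tubulin gene, fell (-0.46 ± 0.13, limma adjusted p = 0.0101), and that call ended without benomyl replicate 1 (-0.34) or DMSO replicate 2 (-0.37). The gamma-tubulin gene TUB4 stood at -0.00 ± 0.12 (limma adjusted p = 0.994). Of 18 genes of tubulins and tubulin folding 7 fell and 1 rose, median -0.20, with 4 falls without benomyl replicate 1. The share of this list that fell, 38.9%, stands beside 17.6% of all genes. Against the second-set 4 h arrays 2 of the 18 were lower and 0 higher, median -0.03. SPC98, of the gamma-tubulin complex (-1.10 ± 0.20), the prefoldin gene GIM4 (-1.05 ± 0.17) and the folding cofactor gene CIN2 (-0.74 ± 0.16) fell by more than the tubulin genes themselves.

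Some spindle genes fell against DMSO. Of 23 microtubule motor and associated protein genes 8 fell (34.8%, beside 17.6% of all genes) and 1 rose (4.35%, beside 20.4%), median -0.35. Against the second-set 4 h arrays 1 of the 23 was lower and 0 higher, median -0.03. STU2, which lengthens microtubule plus ends, read 9.69 and 9.81 with benomyl and 11.50 and 11.88 with DMSO. The gap between the groups exceeded 1.6 log2 units and the effect was -1.94 ± 0.20 (limma adjusted p = 1.12e-06). The dynein chain gene DYN3 (-1.44 ± 0.17) and the kinesin genes KAR3 (-1.08 ± 0.22) and CIN8 (-1.03 ± 0.20) fell too. Among 13 core genes of the spindle pole body 7 fell and 3 rose, median -0.40, but 0 rose with values as deposited, and 1 without benomyl replicate 1 or DMSO replicate 1. The shares of this list, 53.8% lower and 23.1% higher, stand beside 17.6% and 20.4% of all genes. Against the second-set 4 h arrays 1 of the 13 was lower and 0 higher, median -0.04. SPC42, of the central plaque, read 6.89 and 7.08 with benomyl and 8.56 and 8.72 with DMSO and fell (-1.65 ± 0.19). KAR1 (-1.60 ± 0.18), SPC29 (-1.32 ± 0.17) and BBP1 (-1.20 ± 0.19) fell too.

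Spindle checkpoint genes, whose products hold the cell cycle when kinetochores lack microtubules, were not higher than with DMSO. Of 9 tested 3 fell (33.3%, beside 17.6% of all genes) and 0 rose, median -0.12. Against the second-set 4 h arrays 1 of the 9 was higher and 0 lower, median 0.10. The kinase gene MPS1 (-1.23 ± 0.30), MAD3 (-1.07 ± 0.16) and BUB3 (-0.56 ± 0.18) fell, and the call of BUB3 ended without either benomyl array (-0.58 and -0.54) or DMSO replicate 2 (-0.44). MAD2 read 7.69 and 7.73 with benomyl and 7.91 and 7.93 with DMSO (-0.21 ± 0.16, limma adjusted p = 0.349), and BUB1 stood at -0.12 ± 0.20 (limma adjusted p = 0.701). Among 25 kinetochore genes 5 fell and 2 rose, with a median of -0.04 that was 0.01 without DMSO replicate 2. These shares (20.0% lower, 8.0% higher) stand beside 17.6% and 20.4% of all genes, so the share lower was near that of all genes. Against the second-set 4 h arrays 0 of the 25 were lower and 0 higher. The falls included HSK3 (-1.57 ± 0.17) and DAD2 (-0.93 ± 0.16), of the ring complex that couples kinetochores to microtubules, SPC25 (-1.22 ± 0.16) and MTW1 (-0.77 ± 0.17).

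The remaining lists held calls in both directions or few calls, beside 20.4% of all genes higher and 17.6% lower. Of 81 ribosomal protein genes 2 rose and 15 fell, median -0.10, with 3 falls and a median of 0.03 without benomyl replicate 2, 8 falls without DMSO replicate 1 and 7 without DMSO replicate 2. Of 29 ribosome biogenesis genes 2 rose and 3 fell, with a median of 0.01 that turned to -0.06 with values as deposited and -0.01 with median centring. Of 33 proteasome genes 4 rose and 0 fell, median 0.17, which turned to -0.02 with values as deposited, and the rises numbered 1 without benomyl replicate 2 or without either DMSO array. Among 31 DNA replication genes 5 rose and 5 fell, and the rises numbered 1 without benomyl replicate 2 and 2 without either DMSO array. Among 15 DNA damage genes 1 rose and 2 fell. Among 17 mitotic cyclin and G1 regulator genes 0 rose and 3 fell, with 1 fall without benomyl replicate 1 or DMSO replicate 2. Of 4 histone genes that could be tested 1 fell, and none was called without benomyl replicate 1 or either DMSO array. Of 20 autophagy and vacuolar protease genes 4 rose and 6 fell, but 3 rose and 2 fell without benomyl replicate 1, and 2 rose and 3 fell without benomyl replicate 2 or DMSO replicate 2. Of 13 hexose transporter genes 1 rose and 5 fell, with 3 falls without benomyl replicate 2 or DMSO replicate 2. Of 16 mating genes 0 rose and 5 fell.

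**Figure D4:**
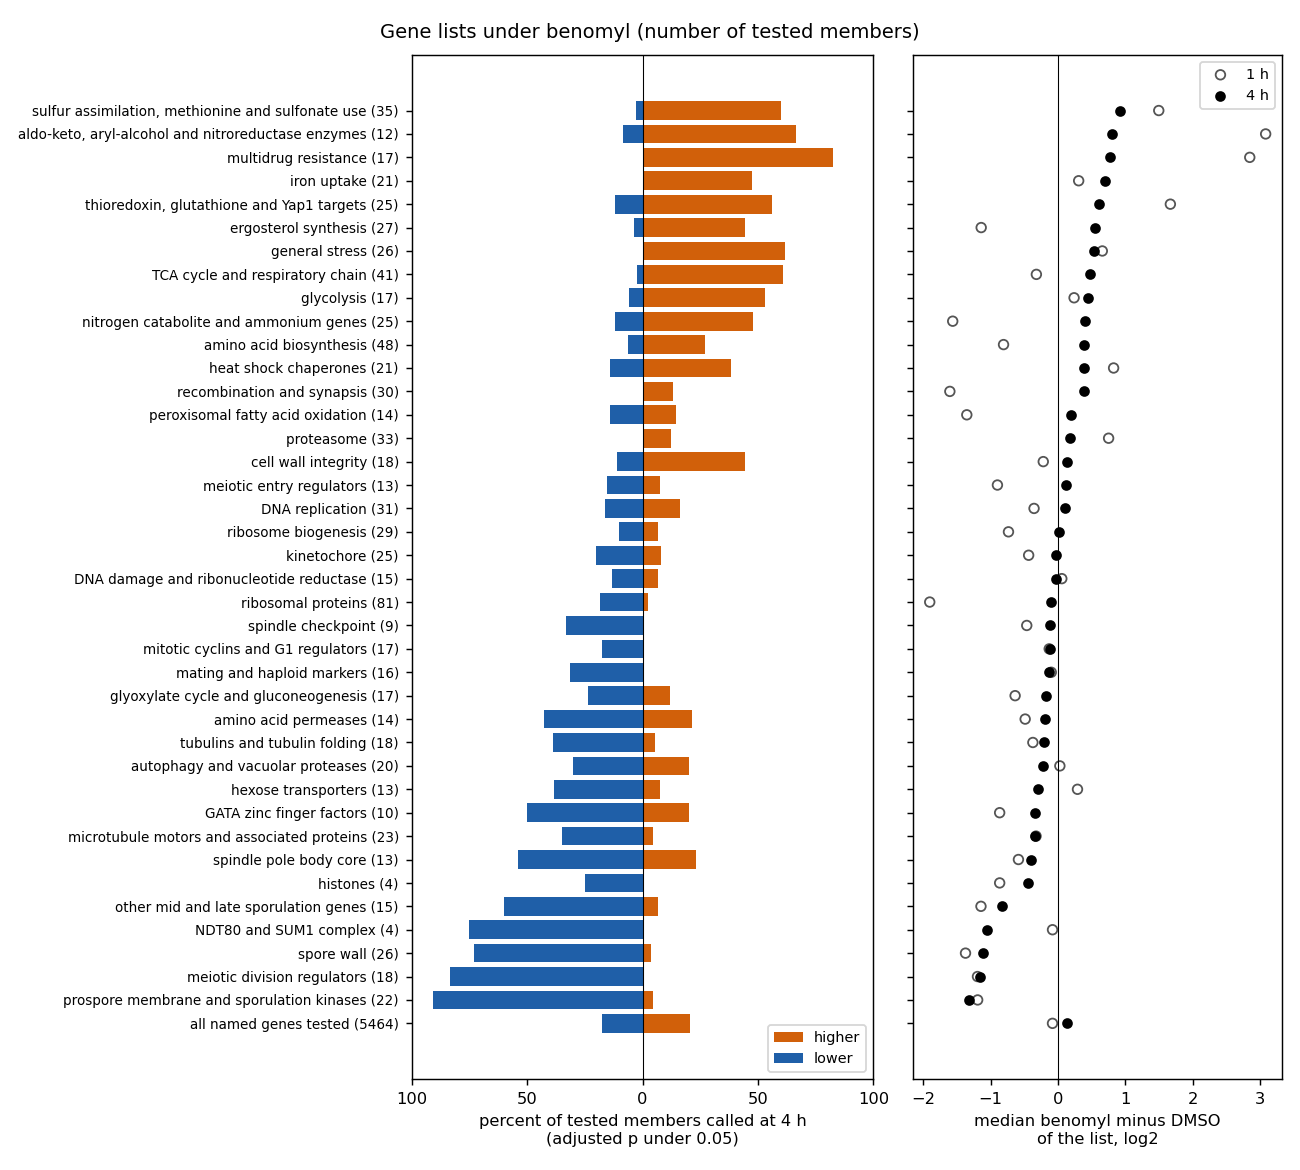
Left, percent of the tested members of each gene list that were higher (right of 0) or lower (left of 0) with benomyl at 4 h; right, the median log2 effect of each list at 1 h (open) and 4 h (filled). Prospore membrane genes have the highest share lower (20 of 22) and multidrug resistance genes the highest share higher (14 of 17), and the ribosomal protein median lies at -1.91 at 1 h and -0.10 at 4 h.

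The effect of benomyl at 4 h was compared with that at 1 h, which was measured on other arrays. At 1 h 2016 probe sets were higher (25.6%) and 2107 lower (26.8%), and the effects at the 2 times differed for 3601 probe sets (45.7%), more positive at 4 h for 1907 (24.2%) and more negative for 1694 (21.5%). The benomyl 1 h arrays agreed less with each other (r = 0.942) than the 4 h arrays, and fits that weighted the arrays called 2019 probe sets at 1 h and 4121 at 4 h. By gene, 1316 were higher (24.1%) and 1698 lower (31.1%) at 1 h, and the difference was called for 1555 (28.5%) toward more positive and 1137 (20.8%) toward more negative at 4 h.

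Drug efflux and redox genes had smaller effects at 4 h. All but 1 of the 17 multidrug genes were higher at 1 h, with a median of 2.84, and for 14 the effect was lower at 4 h. For FLR1 the effect was 4.92 at 1 h and 1.78 at 4 h, a difference of -3.14 ± 0.51 (limma adjusted p = 7.2e-05). OYE3 (-4.41 ± 0.36), GRE2 (-2.97 ± 0.34) and PDR5 (-1.69 ± 0.27) also had lower effects at 4 h. In YKL070W, of unknown function, an effect of 6.58 at 1 h stood beside -0.10 at 4 h, where it was not called. FRM2 (5.71 at 1 h), AZR1 (4.95) and the membrane protein gene YRO2 (4.25) were likewise high at 1 h and not called at 4 h. SNQ2 (3.24 at 1 h) and YLL056C (5.08 at 1 h) showed no called difference (limma adjusted p = 0.125 and 0.195). The JLP1 effect was larger at 4 h, by 0.88 ± 0.29 (limma adjusted p = 0.0189).

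Other groups had lower effects at 1 h than at 4 h. Recombination and synapsis genes had a median of -1.61 at 1 h, with 27 of 30 lower, and their effect was more positive at 4 h for 27. Ribosomal protein genes had 77 of 81 lower at 1 h, median -1.91, and a more positive effect at 4 h for 73. Ergosterol genes went from 21 of 27 lower (median -1.14) to 12 higher, nitrogen genes from 20 of 25 lower (median -1.56) to 12 higher, and TCA cycle and respiratory genes from 20 of 41 lower to 25 higher. FAS1, at -2.97 and 1.78, and MEP2, at -4.53 and 0.77, were among the largest such changes. The median of the recombination, ergosterol, nitrogen and TCA cycle lists turned from below to above 0, whereas that of the ribosomal proteins stayed below 0 at -0.10. Proteasome genes, in contrast, went from 26 of 33 higher at 1 h (median 0.75) to 4 at 4 h (median 0.17).

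Spore genes were lower at both times. Division regulators had a median of -1.20 at 1 h and -1.16 at 4 h, the prospore membrane list -1.19 and -1.32, and the spore wall list -1.37 and -1.12. The effects differed between the times for 8 of the 22 prospore membrane genes, 2 more positive and 6 more negative at 4 h. Among all genes 28.5% were more positive and 20.8% more negative, so a called difference was no trait of this list. GAT4 (0.29 at 1 h, limma adjusted p = 0.188) and HXT10 (0.29, limma adjusted p = 0.167) were not called at 1 h, and their effects differed between the times by -3.80 ± 0.25 and -3.84 ± 0.24. ARO10 was lower at both, by -2.77 at 1 h and -2.70 at 4 h.

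**Figure D5:**
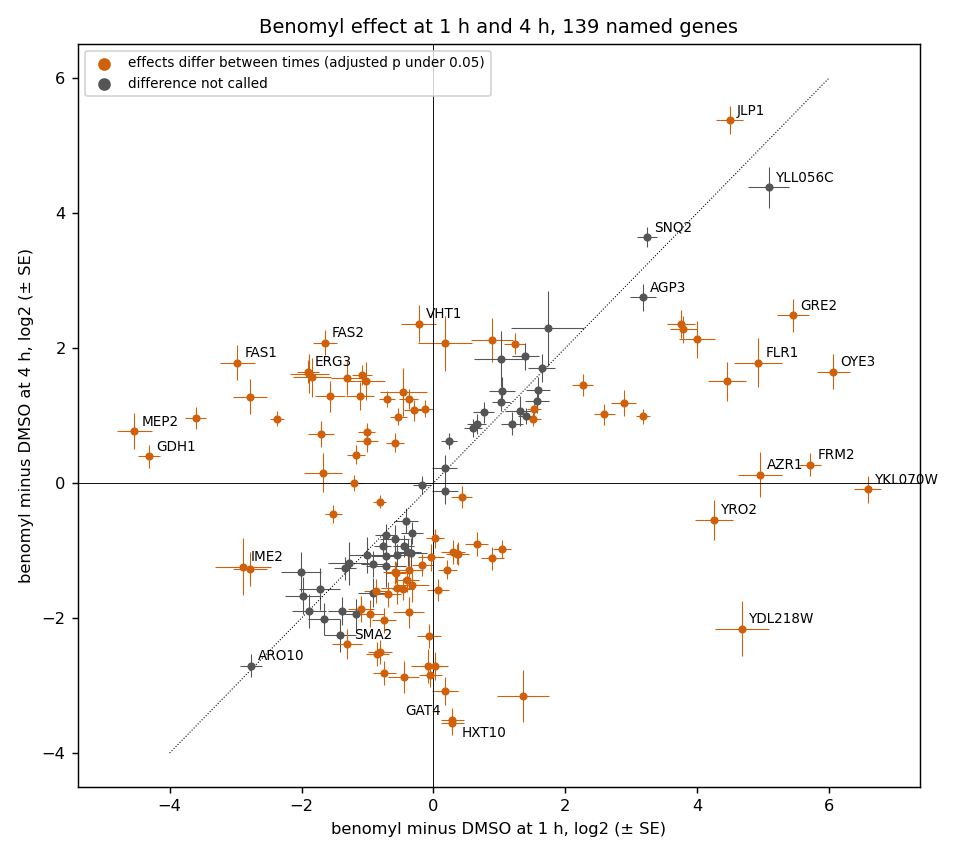
Effect of benomyl at 1 h (x axis) and 4 h (y axis) on 139 named genes, as log2 benomyl minus DMSO ± the standard error of the fit; orange points have effects that differ between the times, grey points do not reach that call, and the dotted line marks equal effects. JLP1 lies at 4.49 and 5.37, OYE3 and YKL070W lie far to the right and low, and FAS1 and MEP2 lie at the upper left.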

How the data were processed

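The values are processed log2 signals for 9335 probe sets on 26 Affymetrix YG_S98 arrays, deposited by the authors in 1 table. How they were made is not given in the sources used here, and their range (2.09 to 15.1) is the ground for reading them as log2. Instrument text files of another kind, per the file headers, hold scanner settings and no expression values, and gave the order of scan days for 16 arrays. All columns were matched to sample labels. Values were quantile normalized, and 60 control probe sets and 1399 below the 25th percentile of all values (log2 5.44) in every group mean were left out. A mean for each of 13 groups was fitted with limma 3.58.1 in R 4.3.3, with an intensity trend (13 residual degrees of freedom, median prior 5.24). Probe sets with a Benjamini-Hochberg p under 0.05 were called. The fit was also run on simulated arrays built from its own means and spreads, and that outcome is not given here. A gene is given by its brightest probe set, and 328 probe sets of the table with several genes and 2443 with none were not named. Among 275 genes with several probe sets 0 had opposite calls.

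The arrays compared, the 39 gene lists and the naming rule were chosen with earlier results of these data known. The rule takes the 12 largest rises and falls with non-overlapping arrays, up to 4 called genes per list by smallest adjusted p, the 5 largest differences each way between the effects at 4 h and 1 h, and 19 genes named whatever their values. A gene entered in the sulfur list by mistake was taken out after the values were seen. Replicate numbers did not pair the samples: the residuals of same-numbered benomyl and DMSO 4 h arrays correlated at 0.10, and those of other group pairs between -0.15 and 0.28. The number is also the scan day, so a fit with it as a block was run as an alternative. Gene names and neighbours came from a supplied table of the R64 assembly. Promoter sequences were not used here.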

Additional observations from a re-analysis of the deposited data

Results flagged for a closer look

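The effect of benomyl differed between 4 h and 1 h for 3601 probe sets, by a limma test of the difference itself, and the named genes with the largest differences and those named whatever their values are given here with both effects. More negative at 4 h were YDL218W, of unknown function (-6.83, from 4.67 at 1 h to -2.16), YKL070W (-6.68, from 6.58 to -0.10) and FRM2 (-5.43, from 5.71 to 0.27). AZR1 (-4.83) and YRO2 (-4.80) were called higher at 1 h and not at 4 h. Smaller at 4 h but still called were OYE3 (-4.41), FLR1 (-3.14) and PDR5 (-1.69), the last uncertain for its probes. GAT4 went from 0.29, not called, to -3.51 (-3.80). MAD2 was higher at 1 h and not called at 4 h (-0.64).

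More positive at 4 h were MEP2, an ammonium permease gene (5.30, from -4.53 to 0.77), FAS1 (4.75, from -2.97 to 1.78, uncertain for its probes) and GDH1, the NADP-linked glutamate dehydrogenase gene (4.71, from -4.31 to 0.40, not called at 4 h). The permease genes AGP1 (4.56) and GAP1 (4.05) went from lower at 1 h to higher at 4 h. IME1 (1.83) was lower at 1 h and not called at 4 h, as was TUB4 (1.20), while IME2 (1.64), TUB3 (1.06) and TUB2 (0.54) were lower at both times with smaller effects at 4 h. JLP1 was higher at both times and more so at 4 h (0.88). The MEP2 effect at 4 h rests on 1 array: it was 0.14 without benomyl replicate 1, where it was not called. The groups of 2 arrays are too small to test for single arrays that stand apart.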

How the results depend on the processing

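The count of 2565 calls at 4 h rose to 4062 with only the 2 groups of the comparison in the fit and to 4121 with array weights. The standard deviation between replicates was 0.129 (benomyl) and 0.138 (DMSO) at 4 h but 0.44 for benomyl at 1 h, which enters the pooled spread. With array weights the 1 h effect had 2019 calls and the second-set course 351. With the replicate number, which is also the scan day, as a replicate block over the 8 benomyl and DMSO arrays there were 1351 calls, and 1604 with no block over the same 8 arrays, a fit added after the data were seen. Leaving out 1 array gave 1516 to 2018 calls. The effect at 4 h against 1 h gave 2446 calls with the block and 2976 to 4252 without single arrays. Against the second-set 4 h arrays 1139 were called, and 10 of 187 course genes were lower in place of 177; with course genes of any size 344 were. The cause of these changes was not tested. Values as deposited gave 2331 calls (36.6% higher, against 51.0%), median centring 2510 (44.4%), no filter 2518, a stricter filter 2400, no variance trend 2551, and the first set alone, also added after the data were seen, 2379. Besides the counts, 125 of 139 named genes kept sign and call with the block; BUB3, ECM11, GAP1, HOP1, IDP2, IME2, KAR3, MEP2, NDT80, REC107, REC8, SPS1, TUB2 and TUB3 lost it. By list, the block moved counts by more than 1.5 times, as did its 8 arrays with no block for most: rises numbered 8 of 17 multidrug, 4 of 21 chaperone, 10 of 26 stress, 5 of 25 nitrogen, 5 of 48 amino acid, 5 of 17 glycolysis, 14 of 41 TCA cycle and 1 of 31 DNA replication genes, and falls 3 of 18 tubulin, 5 of 23 motor, 6 of 15 other late, 2 of 20 autophagy and 4 of 81 ribosomal protein genes.

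Against the second-set 4 h arrays 60 of the 139 kept sign and call, 42 lost the call and 37 turned sign. Among sporulation genes AMA1 stood at 0.39, CLB1 at 0.10, CLB4 at 0.16, CLB6 at 0.17, CRR1 at 0.35, IDS2 at 0.39, IME2 at 0.19, NDT80 at 0.020, OSW2 at 0.10, RFM1 at 0.21, RRT5 at 0.29, SGA1 at 0.21, SMK1 at 0.46, SPO73 at 0.078, SPR6 at 0.24, SPS1 at 0.26, SPS18 at 0.23, REC107 at -0.068 and REC8 at -0.19. Among spindle genes BBP1 stood at 0.35, BUB3 at 0.035, CIN8 at 0.51, HSK3 at 0.14, KAR1 at 0.16, KAR3 at 0.016, MAD2 at 0.49, MAD3 at 0.26, MPS1 at 0.24, SPC42 at 0.043, SPC98 at 0.31 and TUB2 at 0.054. MAD2, not called against DMSO, was called higher in this exchange. The others that turned sign were ARI1 (0.11), ECM23 (0.22), GAT3 (0.59), PRM6 (0.21), HIS4 (-0.22) and MEP2 (-0.25). Motifs in promoters, planned as a description, were not analysed here. With 2 arrays per group, effects of low signals near the filter are least certain.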

Other observations

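Several genes with large effects lie side by side, and those named here were chosen after their values were seen. JLP1 lies between HSU1 (1.65), an enzyme gene of hydrogen sulfide use, and YLL056C (4.38), and YLL056C lies beside YCT1 (1.08), the cysteine transporter gene. All 4 of these genes rose at 4 h. SIP18 (2.11) lies next to PAI3 (2.03), an inhibitor of vacuolar proteinase A, and FIT2 (2.29) next to FIT3 (1.83). Of the genes with a placed, tested neighbour that fell by at least 2-fold, 110 of 420 (26.2%) had a direct neighbour that did so, beside 729 of 5347 (13.6%) of all genes. For rises of at least 2-fold the counts were 23 of 163 (14.1%) and 273 of 5347 (5.11%). These shares are a description without a test.

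Some further genes in no list that rose at 4 h were picked for their values, and stand for no group. They were ACC1 (1.75 ± 0.15), the acetyl-CoA carboxylase gene, ITR1 (1.90 ± 0.15), the inositol transporter gene, EHT1 (1.95 ± 0.21), of ethyl ester synthesis, and BIO2 (1.71 ± 0.32), the biotin synthase gene. The phosphate transporter gene PHO84 (1.90 ± 0.26) and the alcohol dehydrogenase gene ADH2 (1.96 ± 0.55) rose as well. ADH2 averaged 12.76 before filtration, 12.55 with benomyl and 10.59 with DMSO. The other genes named here as higher had benomyl means above their means before filtration. Picked in the same way, UBC11 (-2.30 ± 0.25), a ubiquitin-conjugating enzyme, and CDH1 (-2.22 ± 0.18), an activator of the anaphase complex, fell.

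The 2 benomyl arrays differed from each other by gene group, although their correlation was high. Replicate 1 was above replicate 2 for 34 of 35 sulfur genes (median difference 0.24), 75 of 81 ribosomal protein genes (0.25) and 13 of 17 multidrug genes (0.30). It was below replicate 2 for all 33 proteasome genes (median difference -0.20), all 21 iron uptake genes (-0.39) and 29 of 30 recombination genes (-0.17). Over all genes replicate 1 was the higher for 2692 of 5464, with a median difference of 0.00. Between the DMSO arrays the same lists gave 12 of 35 (-0.06), 60 of 81 (0.15), 11 of 17 (0.14), 24 of 33 (0.09), 8 of 21 (-0.09) and 23 of 30 (0.11). Scan day, array and culture cannot be told apart in these differences.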
